A study of Homo sapiens with 6 samples.

Results

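The replication-dependent histone genes encode the linker histone H1 and the core histones H2A, H2B, H3 and H4 that package newly made DNA in S phase. Their levels were compared between K562 cells that overexpress CTCF and K562 cells that carry an empty vector. A probe set, a group of probes that reads 1 transcript or several near-identical ones, was taken as a member when every gene symbol annotated to it starts with H1-, H2AC, H2BC, H3C or H4C. This gave 78 probe sets of the 54613 on the array that are not controls, and together they name 69 symbols. By type there were 13 probe sets for H1, 16 for H2A, 20 for H2B, 10 for H3 and 16 for H4, 2 were annotated to both H2A and H3 genes, and 1 reads H1-10-AS1, an antisense RNA that encodes no histone. 58 of the 78 carry 1 symbol and 20 carry several, and 3 read pseudogenes (H2AC5P, H4C10P and H1-9P). The prefix also takes in H1-10, a linker histone made outside S phase and so not replication-dependent, and the germ cell linker histones H1-6, H1-7 and H1-8.

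K562 is a line from a chronic myeloid leukaemia with erythroid features. The control cells, named KpCDNA, carry the empty pCDNA vector (2 arrays), and the overexpressing cells, named KCTCF-D11, carry pCDNA-CTCF (4 arrays), both as stable transfectants with no further treatment. The labels name 1 CTCF transfectant, and they do not say whether the arrays of a group came from separate cultures, so p-values measure the spread between these arrays, which may be technical. CTCF is a zinc-finger DNA-binding protein that shapes chromatin loops. RNA was primed with oligo(dT), biotin-labelled and hybridised to Affymetrix U133 Plus 2.0 arrays, and the values are intensities on a linear scale.

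Replication-dependent histone mRNAs are the metazoan messages that end in a conserved stem-loop in place of a poly(A) tail. They are transcribed in S phase in nuclear bodies organised by NPAT, cut with the help of the stem-loop binding protein SLBP and the U7 small nuclear RNP, and broken down when DNA synthesis stops. Oligo(dT) priming reads mainly the polyadenylated forms of such messages, so the intensities here need not follow the whole pool. Most of the genes sit in clusters, the largest of them on chromosome 6, and many encode identical or nearly identical proteins. Probe sets of 1 type can therefore share transcripts and are not independent measurements.

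The promoters of 4 members are shown because the results turn on these genes. H2BC11 and the shared probe set targeted to H4C14 rose past the threshold. H1-4 has the largest log2 change among the H1 probe sets, and H2AC25 is the brightest member whose CTCF arrays all lay below the controls. Each is the RefSeq sequence in GRCh38.p14 from 250 bases before to 50 bases after the start of the gene, 5′ to 3′ on the gene's strand, and capitals mark motif letters found by search on both strands. H2BC11 is at chr6:27132746-27133045 on the minus strand, H4C14 at chr1:149832407-149832706 on the plus strand, H1-4 at chr6:26156079-26156378 on the plus strand and H2AC25 at chr1:228457824-228458123 on the minus strand.
H2BC11: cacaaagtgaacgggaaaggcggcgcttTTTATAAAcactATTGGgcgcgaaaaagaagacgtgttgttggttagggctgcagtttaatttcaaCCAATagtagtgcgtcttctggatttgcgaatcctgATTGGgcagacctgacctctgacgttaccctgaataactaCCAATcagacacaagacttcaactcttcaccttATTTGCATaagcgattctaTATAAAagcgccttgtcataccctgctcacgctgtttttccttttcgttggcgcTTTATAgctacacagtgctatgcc
H4C14: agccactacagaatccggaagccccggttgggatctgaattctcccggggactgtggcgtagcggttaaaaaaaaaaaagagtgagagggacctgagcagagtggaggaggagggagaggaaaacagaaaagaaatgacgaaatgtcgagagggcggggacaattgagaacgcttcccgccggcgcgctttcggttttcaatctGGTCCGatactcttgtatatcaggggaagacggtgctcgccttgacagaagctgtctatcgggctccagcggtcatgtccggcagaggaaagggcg
H1-4: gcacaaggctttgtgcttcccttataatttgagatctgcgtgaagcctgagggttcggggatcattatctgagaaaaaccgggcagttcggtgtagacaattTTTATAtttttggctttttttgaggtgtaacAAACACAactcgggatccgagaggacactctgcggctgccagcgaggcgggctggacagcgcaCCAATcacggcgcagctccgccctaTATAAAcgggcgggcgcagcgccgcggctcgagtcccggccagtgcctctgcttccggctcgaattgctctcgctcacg
H2AC25: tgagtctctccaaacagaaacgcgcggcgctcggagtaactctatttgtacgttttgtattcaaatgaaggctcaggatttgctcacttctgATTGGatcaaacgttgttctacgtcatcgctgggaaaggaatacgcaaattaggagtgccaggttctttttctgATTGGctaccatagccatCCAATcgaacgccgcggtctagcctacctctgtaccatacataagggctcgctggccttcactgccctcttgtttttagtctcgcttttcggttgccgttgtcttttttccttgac

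The letters searched were the octamer ATTTGCAT, the box CCAAT, the box TATAAA, the H1 box AAACACA, the 2 CTCF core strings AGGGGGC and AGGTGGC, and GGTCCG, written here as the H4 element and added after the sequences had been seen. CCAAT read on the other strand is ATTGG and TATAAA is TTTATA, and both forms of the TATA string overlap in TTTATAAA near the 5′ end of the H2BC11 window. The H2BC11 window holds 9 matches, among them 1 octamer, and the H4C14 window holds 1, the H4 element. In the H1-4 window 4 matches were found, among them 1 H1 box, and in the H2AC25 window 3, all of the CCAAT letters. 59 of the 69 symbols had a promoter in the RefSeq table. Of these, 37.3% held the octamer, against 1.8% of all 27305 promoters of that length. By type, 13 of 16 H2B and 8 of 13 H2A promoters held it, against 1 of 8 for H3, 0 of 9 for H1 and 0 of 13 for H4. The CCAAT letters stood in 81.4% of the members against 35.7% of all promoters, though in only 3 of the 13 H4 promoters. TATAAA was found in 62.7% against 12%. The H1 box was in 7 of 9 H1 promoters and in none of the other types, against 5.76% of all promoters. The H4 element was in 12 of 13 H4 promoters, and in 25.4% of the members against 11.2% of all. The CTCF strings were found in 2 and 1 member promoters, 3.39% and 1.69%, against 14.1% and 6.77% of all. These are matches of letters in a short window and say nothing of whether a factor binds there or elsewhere. The windows of H4C14 and H4C15 are identical over 300 of 300 bases, and those of H2BC11 and its neighbour H2AC11 share 253 bases on opposite strands.

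The arrays fall into 2 sets by their 45 spike-in control probe sets, and both sets hold both groups. The smaller set is empty vector array 1 with CTCF array 4, and the larger is empty vector array 2 with CTCF arrays 1, 2 and 3. Median intensities were 28.8 to 34.2, and the share of values under 16 was 35.1% to 38.6%. The 3′ over 5′ signal of ACTB, a measure of how far labelled RNA reaches from the 3′ end, was 0.81 and 0.91 (log2) on the arrays of the smaller set and ran from 0.22 to 0.28 on the other arrays. Every fold change and p-value below comes from limma's moderated test on log2(intensity + 16) with the array set as a block, with Benjamini-Hochberg adjustment over all 54613 probe sets and a threshold of 0.05, and the same quantity is given within each set. Adding 16 understates the fold of dim probe sets. The targeted gene, CTCF, read 457 and 634 on the empty vector arrays and 1311, 1614, 1332 and 1332 on the CTCF arrays. It rose by a log2 of 1.29 ± 0.16 (SE), 2.44-fold, with adjusted p = 0.0288, and without the block that p was 0.199. Of 7 erythroid marker genes measured, 4 had a log2 change above 0 and 1 passed the threshold, against 46.8% and 1.86% of all probe sets. HBZ, an embryonic globin, rose 2.98-fold (adjusted p = 0.0166, and 0.128 without the block). HBE1, the brightest, had a log2 change of 0.41 (adjusted p = 0.136), and the erythroid regulator GATA1, whose CTCF arrays all lay below the controls, one of -0.25 (adjusted p = 0.407). The 4 lymphoid markers measured were between 11.9 and 123 on every array.

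Across the histone probe sets, most values were higher with CTCF, though few passed the test one by one. All 4 CTCF arrays lay above both empty vector arrays for 33 of the 78 members (42.3%), against 6.06% of all probe sets, and below both for 4, against 7.18%. The members are brighter than the average probe set, since 58 of the 78 are above the median probe set of the array in mean log2 intensity. Of these 58, 31 lay above in this way and 2 below, against 8.17% and 10.5% of all 27306 probe sets as bright. 56 of the 78 had a log2 change above 0 (71.8%), against 46.8% of all, and so had 47 of the 58 brighter ones, against 44.4%. The median log2 change was 0.30 over the members and -0.02 over all probe sets, and the members ran from -0.82 to 1.58. Under the adjusted threshold 2 members rose and 0 fell, 2.56% of the members, against 1.86% of all probe sets called (0.538% higher and 1.32% lower). This share moved with the fit, from 0 members without the block (0.011% of all probe sets) to 15.4% of the members against 4.7% of all with a variance trend and robust variances. Of the brighter probe sets, 2 of 58 members and 3.52% of all were called. At an unadjusted p under 0.05, 27 members were higher and 3 lower, where 7.43% and 10.2% of all probe sets were. Since the genes were picked with earlier results of these arrays known, these counts describe the members and are not an independent test.

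Within the array sets the picture was alike. 53 members (67.9%) were higher with CTCF inside both sets, against 28.3% of all probe sets (44 of the 58 brighter members, against 32.1%), 13 were lower inside both, against 32.4%, and 12 went opposite ways. The members' median difference was 0.25 for the smaller set and 0.27 for the larger. The sets themselves differed for single members by -2.45 to 1.17 (log2, larger minus smaller), around a member median of 0.06 and a median of 0.12 over all probe sets. In bulk RNA, a larger share of cells in S phase and more histone message per cell cannot be told apart.

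**Figure D1:**
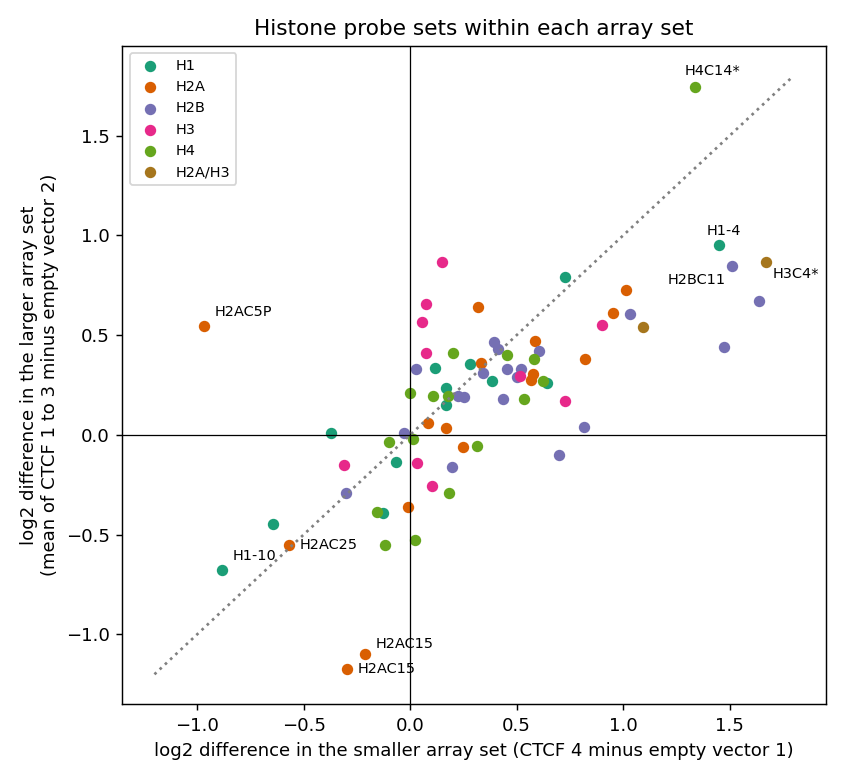
Each point is 1 of 77 histone probe sets, with the log2 difference of CTCF array 4 from empty vector array 1 on the horizontal axis and that of the mean of CTCF arrays 1 to 3 from empty vector array 2 on the vertical axis; the dotted line marks equal values and an asterisk a probe set shared by several genes. Most points lie in the upper right, H4C14 lies highest at 1.34 and 1.75, and H1-10 and H2AC25 lie in the lower left.

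Among the types with 10 or more probe sets, H2B had the largest share wholly above and H4 the smallest. Among the brighter members alone H2B did not lead. The 2 probe sets annotated to both H2A and H3 were both wholly above. CTCF arrays lay wholly above for 12 of 20 H2B probe sets (60%), 5 of 10 for H3 (50%), 7 of 16 for H2A (43.8%), 4 of 13 for H1 (30.8%) and 3 of 16 for H4 (18.8%). Over all probe sets the share was 6.06%. CTCF arrays lay wholly below for 1 H1, 2 H2A and 1 H2B probe sets and for no H3 or H4 probe set, against 7.18% of all. Of the brighter members, 3 of 4 H3, 12 of 18 H2B and 4 of 6 H1 probe sets lay wholly above. So did 7 of 15 for H2A and 3 of 12 for H4, against 8.17% of all brighter probe sets. The median log2 change was 0.36 for H2B, 0.37 for H3, 0.22 for H2A, 0.21 for H1 and 0.14 for H4. The differences between types were not tested. Probe sets with several symbols had a median of 0.40, with 13 of 20 wholly above, and those with 1 symbol a median of 0.22, with 20 of 58. Those ending in _x_at had a median of 0.41, with 11 of 15 wholly above, and all others 0.215, with 22 of 63. The _x_at probe sets wholly above include those of H2BC5, H2BC6, H2BC9 and H2BC12L. The part of this in the share for H2B was not tested. When 1 probe set was kept for each target gene, 27 of 61 lay wholly above, 2 wholly below, and the median was 0.32.

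**Figure D2:**
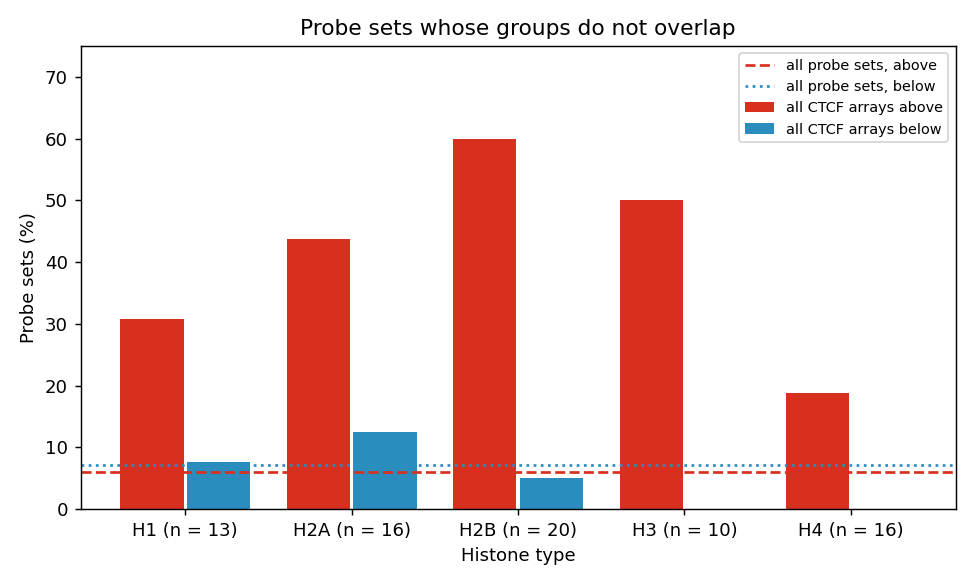
Bars give the percentage of the probe sets of each histone type whose 4 CTCF arrays all lie above (red) or all below (blue) both empty vector arrays, with n the number of probe sets. The dashed and dotted lines are the shares of all probe sets, 6.06% above and 7.18% below; the red bar reaches 60% for H2B and 18.8% for H4.

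**Figure D3:**
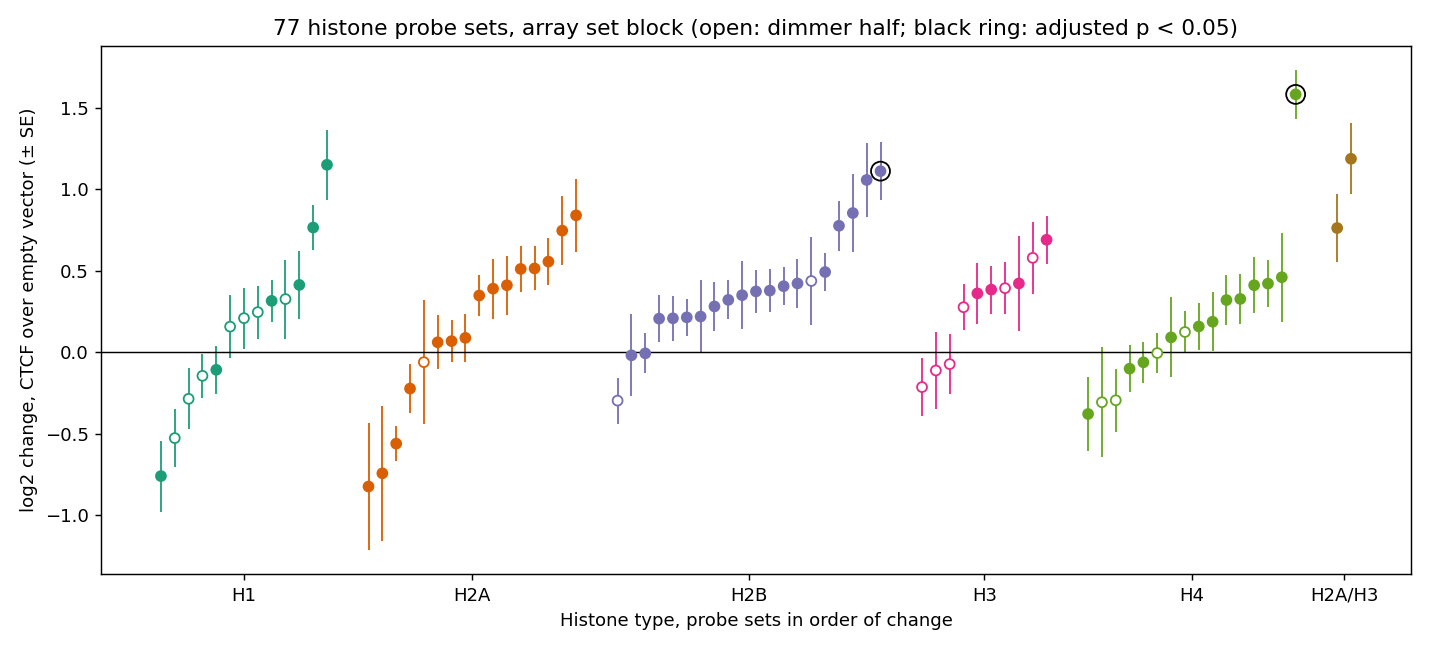
Points are the log2 change (CTCF over empty vector, fit with the array set as a block) of the 77 histone probe sets with bars of 1 SE, by type; open points are dimmer than the median probe set of the array and a black ring marks an adjusted p under 0.05. H4C14 at 1.58 and H2BC11 at 1.11 carry a ring, and the lowest value is H2AC15 at -0.82.

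Linker histones, which bind the DNA that enters and leaves the nucleosome, split by gene. The S-phase subtypes H1-4, H1-3 and H1-2 had every CTCF array above both controls. So had 1 of the 2 probe sets of the testis subtype H1-6. H1-10 had lower values in both array sets, and 1 dim probe set of H1-7 lay wholly below. The dim H1-1 and H1-5 had overlapping groups. In limma's test 0 of the 13 H1 probe sets passed, with 3 higher and 2 lower at an unadjusted p under 0.05. Of all probe sets 1.86% passed, and 7.43% were higher and 10.2% lower at that unadjusted p.

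H1-4 read 226 and 282 on the empty vector arrays and 713, 487, 506 and 647 on the CTCF arrays, with means of 254 ± 39.5 (SD, n = 2) and 588 ± 110 (SD, n = 4). The lowest CTCF array was well above the higher control. The log2 change was 1.15 ± 0.21 (SE), 2.22-fold, with adjusted p = 0.0632, and it was 1.45 within the smaller set and 0.95 within the larger. H1-3 read 21.0 and 37.3 in the controls and 87.8, 68.1, 74.4 and 45.2 with CTCF, a log2 change of 0.77 ± 0.14 with adjusted p = 0.0582. Its lowest CTCF value, on array 4, belongs to the smaller set, where the control was also the lower one. H1-2, the brightest linker histone here, read 5227 and 5557 in the controls and 8522, 5865, 5917 and 8177 with CTCF (log2 0.41 ± 0.21, adjusted p = 0.385). CTCF arrays 2 and 3 stood just above the controls and arrays 1 and 4 clearly above.

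H1-10, the replication-independent subtype, read 1133 and 1816 in the controls and 1355, 1251, 850 and 607 with CTCF. The groups overlapped across the sets, and the log2 change was -0.76 ± 0.22 with adjusted p = 0.150, -0.88 within the smaller set and -0.68 within the larger. Its antisense neighbour H1-10-AS1 had a log2 change of 0.26 ± 0.12 (adjusted p = 0.364). The testis subtype H1-6 has 2 probe sets that differ in sign, one at -0.11 ± 0.15 and the other at 0.32 ± 0.13 (adjusted p = 0.775 and 0.283), and the first turned positive in 2 alternative fits. The second lay wholly above, at 50.8 and 47.6 in the controls against 68.5, 55.6, 58.4 and 71.2 with CTCF. H1-7, known from spermatids, has 3 dim probe sets with log2 changes of -0.53, -0.285 and 0.16 and intensities of 1 to 40.7. The one at -0.285 lay wholly below, at intensities of 1 to 12.2. H1-1, H1-5, H1-8 and the pseudogene H1-9P were dim as well, between 1 and 22.3 on every array, and had log2 changes of -0.14 to 0.33.

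Of the 16 H2A probe sets, 11 had a log2 change above 0, 7 lay wholly above and 2, for H2AC25 and H2AC15, wholly below. The shares of all probe sets were 46.8%, 6.06% and 7.18%. 0 passed the adjusted threshold in limma, against 1.86% of all. At an unadjusted p under 0.05, 6 were higher and 1 lower, where 7.43% and 10.2% of all probe sets were. H2A pairs with H2B on the outer face of the nucleosome core.

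H2AC18 and H2AC19 are near-identical genes of the chromosome 1 cluster and share 3 probe sets here. The brightest of them, named for both genes, read 3356 and 3305 in the controls and 6530, 4516, 4370 and 6518 with CTCF (log2 0.75 ± 0.21, adjusted p = 0.145). The one targeted to H2AC18 read 1979 and 1772 against 3932, 2600, 2491 and 4010 (log2 0.84 ± 0.23, adjusted p = 0.132). On both, CTCF arrays 1 and 4 were higher than arrays 2 and 3, as for H1-2. The third was dim at 31.4 to 65.6 and had a log2 change of 0.07. H2AC6 read 2643 and 2391 against 3731, 3155, 3094 and 3971 (log2 0.52 ± 0.14, adjusted p = 0.126).

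H2AC25, which lies outside the large clusters on chromosome 1, was lower with CTCF on the brighter of its 2 probe sets. It read 3496 and 3045 in the controls, a mean of 3270 ± 319 (SD, n = 2), and 2082, 2079, 2044 and 2353 with CTCF, a mean of 2139 ± 143 (SD, n = 4). The groups did not overlap and the log2 change was -0.56 ± 0.11, 0.678-fold, with adjusted p = 0.0685, and nearly the same within the sets (-0.57 and -0.55). The dimmer probe set of H2AC25 followed the array sets more than the groups. It read 243 on empty vector array 1 and 240.5 on CTCF array 4 but 22.6 to 38.9 on the 4 arrays of the larger set, a difference by array set of -2.45 (log2). Its log2 change with CTCF was -0.22 ± 0.15 (adjusted p = 0.524), -0.01 within the smaller set and -0.36 within the larger, where the 3 CTCF arrays lay below the control at 38.9.

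H2AC15 had lower values on both of its probe sets. The first of its 2 probe sets read 84.2 and 117 in the controls and 79.9, 37.0, 24.6 and 65.6 with CTCF (log2 -0.82 ± 0.39, adjusted p = 0.356), with CTCF array 1 close under the lower control. The second read 81.1 and 212 against 167, 71.9, 59.4 and 67.9 (log2 -0.74 ± 0.41, adjusted p = 0.433), and its groups overlapped. Among the rest, H2AC17, H2AC14 and the shared probe sets targeted to H2AC13 and H2AC11 lay wholly above, with log2 changes of 0.56, 0.39, 0.41 and 0.35. The 2 shared ones carry the same 6 symbols. H2AC4, H2AC8, H2AC16 and H2AC5P had overlapping groups and log2 changes of -0.06 to 0.51.

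Of the 20 H2B probe sets 12 lay wholly above and 1, for H2BC11, rose, against 6.06% and 0.538% of all probe sets. 17 of 20 had a log2 change above 0, against 46.8% of all. At an unadjusted p under 0.05, 10 were higher and 0 lower, where 7.43% and 10.2% of all probe sets were. H2B genes stand in pairs with H2A genes in the clusters, often sharing a promoter region.

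H2BC11 on its own probe set read 113 and 320 on the empty vector arrays and 566, 629, 574 and 350 on the CTCF arrays, with means of 216 ± 147 (SD, n = 2) and 530 ± 123 (SD, n = 4). Both arrays of the smaller set were the lowest of their group, and the lowest CTCF value lay just above the higher control. It rose by a log2 of 1.11 ± 0.18, 2.16-fold, with adjusted p = 0.0480, 1.51 within the smaller set and 0.85 within the larger. The call was lost without the block (adjusted p = 0.588) and when any 1 of the 6 arrays was left out (0.0662 to 0.342). Of the 2 probe sets shared with H2BC8, one read 465 and 695 against 1144, 1093, 972 and 968 (log2 0.78 ± 0.15, adjusted p = 0.0694), and the other had a log2 change of 0.28 ± 0.15 (adjusted p = 0.415).

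H2BC4 gave values of like size on the shared probe set targeted to it and on its own. The shared probe set targeted to it read 173 and 321 against 492, 547, 526 and 572 (log2 1.06 ± 0.23, adjusted p = 0.0835), and its own read 185.9 and 350.7 against 462, 528, 461 and 544 (log2 0.855 ± 0.24, adjusted p = 0.144). On both, the difference was larger within the smaller set (1.64 and 1.47) than within the larger (0.67 and 0.44), where empty vector array 2 was the higher control. The shared probe sets targeted to H2BC7 and H2BC10, also annotated to H2BC4, were brighter and had smaller log2 changes, 0.32 and 0.42.

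H2BC12, the brightest member, read 8066 and 9070 against 10958, 10175, 9957 and 9600 (log2 0.21 ± 0.12, adjusted p = 0.415). H2BC12L read 4167 and 4463 against 6270, 5364, 5269 and 5708 (log2 0.38 ± 0.13, adjusted p = 0.215). The shared probe set targeted to H2BC7 read 3929 and 4023 against 5385, 4748, 4844 and 4986 (log2 0.32 ± 0.12, adjusted p = 0.243). In all 3 the groups were apart, at 1.16-, 1.30- and 1.25-fold. The 2 probe sets of H2BC5 also lay wholly above, with log2 changes of 0.37 ± 0.13 and 0.21 ± 0.14 (adjusted p = 0.224 and 0.535), as did H2BC9 at 0.49 and H2BC6 at 0.41. H2BC21, of the chromosome 1 cluster, overlapped at 1258 and 1248 against 1549, 1003, 891 and 1444 (log2 -0.02 ± 0.25, adjusted p = 0.984). Its CTCF arrays 1 and 4 were above the controls and arrays 2 and 3 below them. H2BC3 lay wholly below at intensities of 3.58 to 15.3. H2BC1, H2BC13, H2BC14, H2BC15, H2BC17 and the shared probe set targeted to H2BC10 had overlapping groups and log2 changes of -0.01 to 0.44.

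**Figure D4:**
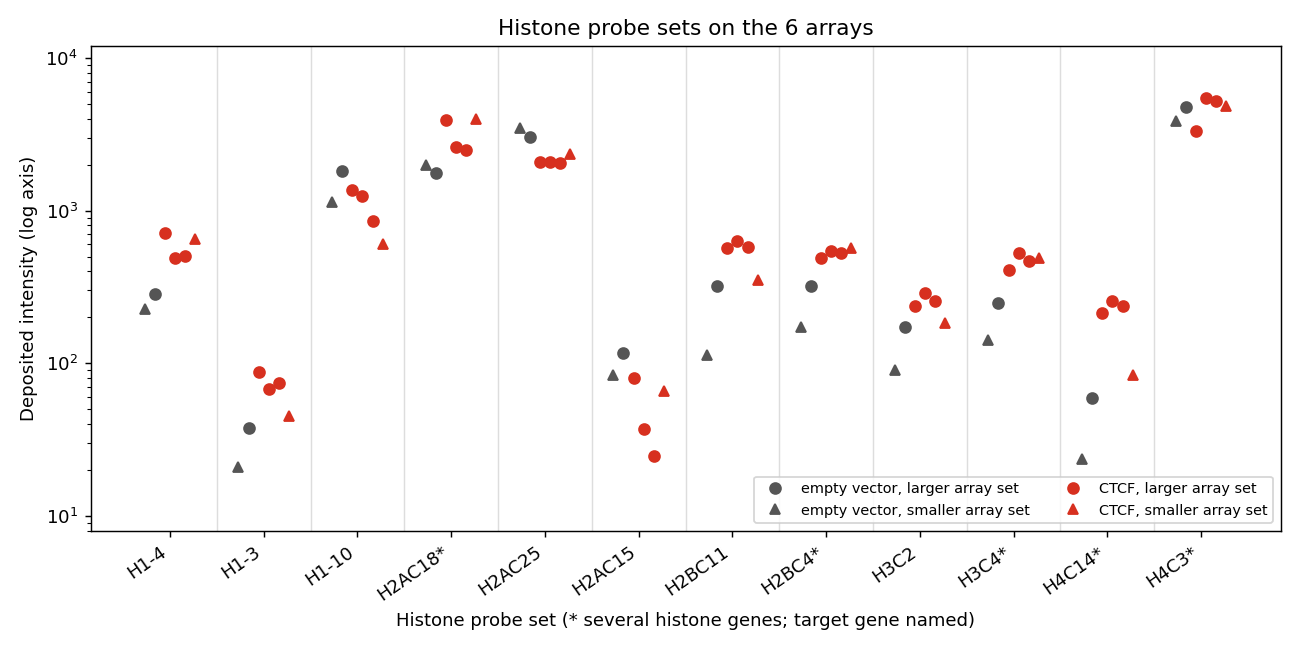
Intensities (log axis) of 12 histone probe sets on the 6 arrays, with empty vector in grey and CTCF in red, circles for the larger array set and triangles for the smaller; an asterisk marks a probe set shared by several genes. H4C14 goes from 23.5 and 58.9 to 83.9 to 256, H2AC25 from 3496 and 3045 down to 2044 to 2353, and H1-10 overlaps between the groups.

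H3 probe sets were mostly dim, and the brighter ones were higher with CTCF. 7 of 10 had a log2 change above 0 and 5 lay wholly above, while 0 passed in limma (4 higher and 0 lower at an unadjusted p under 0.05). Over all probe sets 46.8% were above 0, 6.06% lay wholly above and 1.86% passed. At that unadjusted p, 7.43% of all were higher and 10.2% lower. H3 pairs with H4 at the centre of the nucleosome.

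H3C2 read 90.3 and 171 in the controls and 236, 288, 254 and 183 with CTCF (log2 0.69 ± 0.15, adjusted p = 0.0839), with each set's CTCF arrays above that set's control. The shared probe set targeted to H3C10, which carries 10 H3 symbols, read 1096 and 1433 against 1987, 1772, 1558 and 1575 (log2 0.39 ± 0.15, adjusted p = 0.258). H3C8 overlapped at 161 and 108 against 132, 166, 263 and 171 (log2 0.42 ± 0.29, adjusted p = 0.529). H3C1 read 25.5 and 25.6 against 36.9, 45.8, 55.3 and 27.1 (log2 0.36 ± 0.19, adjusted p = 0.398). CTCF array 4 was the one nearest to the H3C1 controls. H3C6 has 2 dim probe sets, one at -0.11 ± 0.23 and the other at 0.39 ± 0.16, with adjusted p = 0.864 and 0.281. H3C3, H3C7, H3C11 and a further shared probe set lay between 1.35 and 32.96 on every array and had log2 changes of -0.21 to 0.58.

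Both probe sets annotated to H2A and H3 genes together lay wholly above. The one targeted to H3C4, annotated to 10 H3 genes and H2AC7, read 142 and 248 in the controls and 407, 528, 469 and 487 with CTCF, with means of 195 ± 75.4 (SD, n = 2) and 473 ± 50.3 (SD, n = 4). The 4 CTCF arrays were close together and the controls apart. The log2 change was 1.19 ± 0.22, 2.28-fold, with adjusted p = 0.0617, 1.67 within the smaller set and 0.865 within the larger. The other, targeted to H2AC7, read 486 and 792 against 1386, 1166, 963 and 1055 (log2 0.76 ± 0.21, adjusted p = 0.133).

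H4 held the largest single rise of all members, while most of its probe sets had overlapping groups. 10 of 16 probe sets had a log2 change above 0, 3 lay wholly above and 0 wholly below. The shares of all probe sets were 46.8%, 6.06% and 7.18%. At an unadjusted p under 0.05, 2 were higher and 0 lower, where 7.43% and 10.2% of all probe sets were. The H4 genes encode 1 nearly invariant protein. Several H4 probe sets are annotated to the same 14 genes and may share transcripts.

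The probe set named here for H4C14, on chromosome 1, carries 14 H4 symbols, and its target accession matched H4C14 alone. Which of these genes it reads was not tested. This probe set read 23.5 and 58.9 on the empty vector arrays and 214, 256, 238 and 83.9 on the CTCF arrays. The means were 41.2 ± 25 (SD, n = 2) and 198 ± 77.8 (SD, n = 4). CTCF array 4, of the smaller set, was far below the other 3 but above both controls. It rose by a log2 of 1.58 ± 0.15, 3.00-fold on the scale with 16 added, with adjusted p = 0.0221, 1.34 within the smaller set and 1.75 within the larger. Without the block the adjusted p was 0.469. The call was kept without CTCF array 1 (adjusted p = 0.0451) and was lost when any 1 of the other 5 arrays was left out (0.104 to 0.398), with log2 changes of 1.34 to 1.75 in all of these fits.

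The other shared H4 probe sets had smaller log2 changes, 0.09 to 0.41. The brightest, targeted to H4C3, read 3864 and 4755 in the controls and 3330, 5464, 5249 and 4812 with CTCF (log2 0.09 ± 0.24, adjusted p = 0.894), and its groups overlapped. The one targeted to H4C11 read 399 and 466 against 473, 612, 626 and 624 (log2 0.41 ± 0.17, adjusted p = 0.297). H4C8 has 2 probe sets of its own. The first read 261 and 603 against 623, 767, 673 and 385 (log2 0.32 ± 0.15, adjusted p = 0.353), and the second read 426 on both controls against 486, 610, 615 and 589 (log2 0.42 ± 0.15, adjusted p = 0.213). The former was low on both arrays of the smaller set and its groups overlapped, and those of the latter did not. H4C9 read 124 and 206 against 183, 116, 116 and 113 (log2 -0.38 ± 0.23, adjusted p = 0.466). H4C1, H4C4, H4C5, H4C7, H4C13, the pseudogene H4C10P and a probe set annotated to H4C11 alone had overlapping groups. So had the shared ones targeted to H4C2, H4C6 and H4C8. The log2 changes of all of these were -0.31 to 0.46.

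Along chromosome 6 the histone genes fall into 3 groups when a gap of 500 kb parts them. In the first, 32 of 39 probe sets had a log2 change above 0 and 19 lay wholly above, with a median of 0.36. In the second, with H2BC11, H2AC11, H2BC12 and H4C9, these counts were 3 and 3 of 4, with a median of 0.28. In the third they were 11 and 5 of 17, with a median of 0.22. Over all probe sets 46.8% had a log2 change above 0 and 6.06% lay wholly above. The 3 probe sets of the chromosome 1 cluster that matched 1 target, for H4C14, H2AC18 and H2BC21, had log2 changes of 1.58, 0.84 and -0.02. Values above and below 0 were found in each of the 3 groups on chromosome 6, and the difference between groups was not tested.

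**Figure D5:**
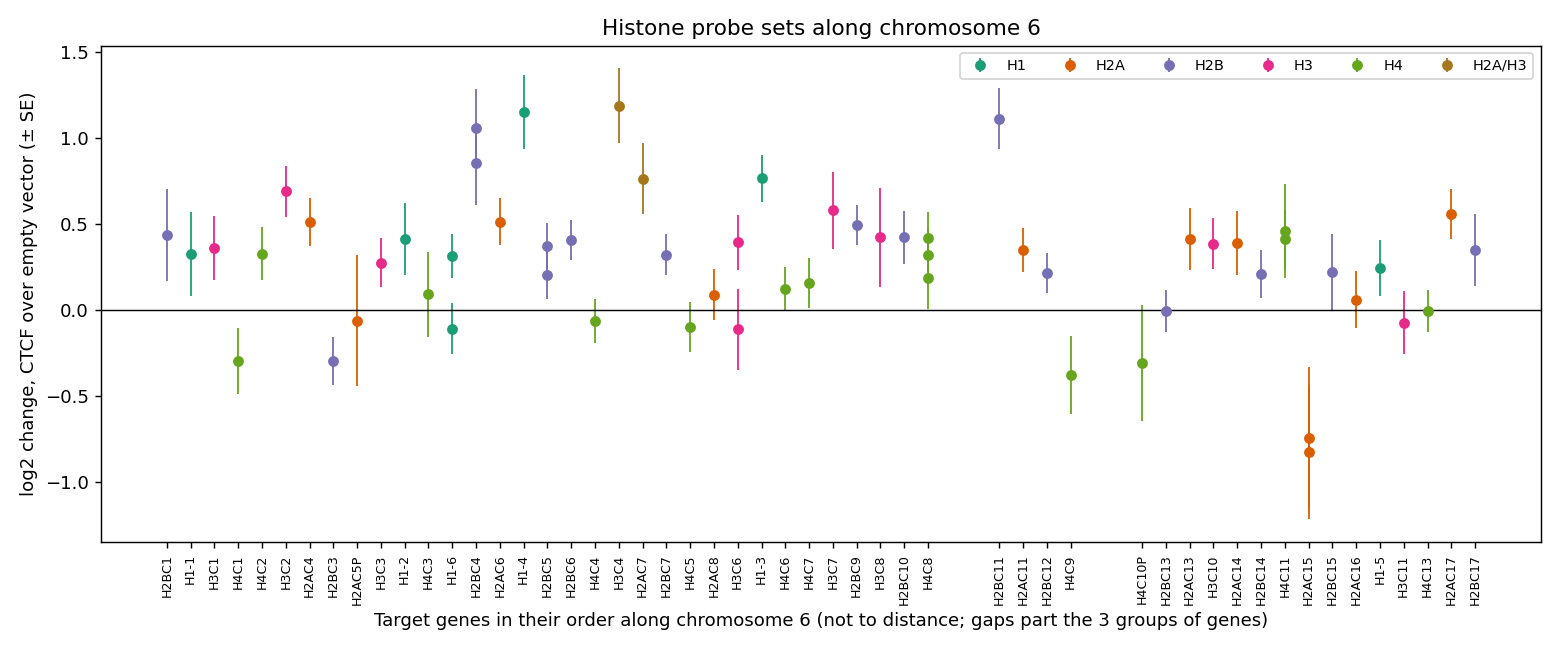
Log2 change with bars of 1 SE for the histone probe sets with 1 target gene on chromosome 6, in gene order and not to distance, coloured by type, with gaps between the 3 groups of genes. Values above 0 are spread over the first group, where the median is 0.36, and the second runs from H2BC11 at 1.11 over H2AC11 and H2BC12 to H4C9 at -0.38.

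The authors' deposited table of changed probe sets, which per its header required a lower bound of the fold over 1.5 and a difference over 90, lists 768 probe sets, 1.41% of all, and 3 of them are histone members. In the authors' deposited table H4C14 went from 40.99 to 198.39, a fold of 4.84 with bounds of 2.43 and 19.88. H1-4 went from 256.03 to 586.53 in the authors' deposited table, a fold of 2.29 with bounds of 1.72 and 3.17. The probe set targeted to H3C4 went from 194.91 to 476.47 in the authors' deposited table, a fold of 2.44 with bounds of 1.63 and 4.61. These are linear folds of means that the header describes as weighted by standard error, with nothing added to the values. H2BC11 is not among the 3.

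Replacement histones, many of which are also made outside S phase from polyadenylated messages, had log2 changes of -0.21 to 0.52. Of 13 listed genes 8 were measured by a probe set of their own. In limma 0 passed, against 1.86% of all probe sets, and 0 were higher and 0 lower at an unadjusted p under 0.05. 2 of the 8 lay wholly above (25%, against 6.06% of all probe sets and 8.17% of the brighter ones) and 0 wholly below (against 7.18% of all). Their median log2 change was 0.07. H2AZ1, the brightest, read 8657 and 8868 against 9795, 9556, 8861 and 9286 (log2 0.09 ± 0.12, adjusted p = 0.757). H2AJ, a replacement H2A named after its values were seen, had the highest log2 change, 0.52 (adjusted p = 0.344), at 1051 and 1345 against 2218, 1525, 1377 and 1900, and its groups did not overlap. A further 8 probe sets shared by H3-3A and H3-3B, the genes of the replacement histone H3.3, ran from -0.03 to 0.37 with a median of 0.10, and 0 passed in limma (0 at an unadjusted p under 0.05). That replacement and replication-dependent histones differ was not tested.

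Among factors for transcription, 3′ end processing and decay of histone mRNA, 1 of 25 measured genes fell and 0 rose in limma's test. Of all probe sets 1.32% fell and 0.538% rose. All 25 genes were among the brighter probe sets, of which 3.52% passed in either direction. At an unadjusted p under 0.05, 6 genes were higher and 5 lower, where 7.43% and 10.2% of all probe sets were. The median log2 change was 0.07. TUT7, a uridylyltransferase that marks RNAs for decay, read 240 and 382 in the controls and 191, 202, 187 and 122 with CTCF, and the groups did not overlap. It fell by 0.92 ± 0.11 on the log2 scale (adjusted p = 0.0287, and 0.679 without the block). The brightest gene of the list, SLIRP, is better known as a mitochondrial RNA-binding protein, and had a log2 change of 0.56 (adjusted p = 0.149). SLBP and NPAT, named for their roles and chosen after their values were seen, had log2 changes of 0.15 and 0.47 (adjusted p = 0.651 and 0.209).

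Of 27 histone chaperones measured, proteins that carry histones to and from DNA, 0 passed in limma, against 1.86% of all probe sets. All 27 were among the brighter probe sets, of which 3.52% passed. At an unadjusted p under 0.05 in that test, 6 were higher and 2 lower, where 7.43% and 10.2% of all probe sets were. Of the 27, 4 lay wholly above (14.8%, against 8.17% of all brighter probe sets) and 2 wholly below (against 10.5%). The median log2 change was 0.05. The brightest, ANP32B, had a log2 change of -0.03 (adjusted p = 0.939). ASF1A, ASF1B and NAP1L1 are named after their values were seen. The H3-H4 chaperones ASF1A and ASF1B had log2 changes of 0.85 and 0.72 (adjusted p = 0.0620 and 0.101). NAP1L1, a chaperone of H2A and H2B, read 4945 and 6108 against 3420, 2877, 2752 and 3108 (log2 -0.88, adjusted p = 0.0582), and its groups did not overlap.

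S phase genes, whose products make DNA when histones are made, had 0 of 23 past the threshold in limma. Of all probe sets 1.86% passed, and of the brighter ones 3.52%. At an unadjusted p under 0.05 in that test, 4 were higher and 0 lower, where 7.43% and 10.2% of all probe sets were. All 23 were among the brighter probe sets. 16 had a log2 change above 0 (69.6%, against 44.4% of all brighter probe sets), 2 lay wholly above (8.7%, against 8.17%), and the median was 0.12. TYMS, which makes thymidylate and is the brightest of them, had a log2 change of 0.12 (adjusted p = 0.673). The part of a change in S phase cells in the histone values was not tested.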

How the data were processed

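The 6 arrays were compared from the deposited value table, which holds linear intensities. Of the authors' background correction, summarisation and normalization, no account is given in the sources used here. The authors' deposited table of changed probe sets gives, per the file headers, group means, folds and fold bounds, held here as score values with no fixed range, and was used only to quote 3 members. Probe sets were named from the platform annotation, with symbols updated through Entrez IDs to RefSeq (GRCh38.p14). 15 of the 20 probe sets with several symbols had a target accession that matched 1 RefSeq gene.

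limma 3.58.1 in R 4.3.3 was fitted to log2(intensity + 16) of the 54613 probe sets that are not controls, with group and array set as terms and Benjamini-Hochberg adjustment over all of them. The array sets came from clustering the 45 spike-in probe sets. The scripts were tested on simulated data. The number of arrays, 2 and 4, limits the precision. Alternatives changed the block, normalization, pseudocount, filter, variance model and arrays used.

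The members and lists were chosen with earlier results of these data known. Named in full were CTCF, members past the threshold or in the authors' deposited table, the 3 brightest of each histone type with its largest rise and fall, H1-10, genes with several probe sets, and, of other lists, members past the threshold and the brightest. H1-3, the own and the targeted probe set of H2BC4, the 2 shared by H2BC11 and H2BC8 and the one targeted to H2AC7 fall outside this rule. They were added after their values were seen. Protein sequences were not used here.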

Additional observations from a re-analysis of the deposited data

Results flagged for a closer look

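In 6 of the 35 histone probe sets named, 1 of the 4 CTCF arrays stood far from the other 3, with a gap to the nearest array, as a share of the group's range, above Dixon's critical value, where chance alone gives about 1 in 20 groups. CTCF array 4 was the one apart in 4 of them. It read 83.9 for H4C14, below the other CTCF arrays (gap 0.834 of the range). It read 2353 on the brighter probe set of H2AC25 (0.87), 240.5 on its dimmer one (0.892) and 28.1 on a dim probe set of H3C6 (0.888), above the others each time. This array is the only CTCF array in the smaller array set, and on the dimmer H2AC25 probe set the empty vector array of that set read 243. The part of the array set in these values was not tested. CTCF array 1 was apart in the other 2. It read 473 on the shared probe set targeted to H4C11, below the others (0.92), and 183 for H4C9, above them (0.948).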

How the results depend on the processing

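The number of histone probe sets past the threshold depended on the fit. It was 2 in the reported one, 0 without a block, 0 with a replicate block, 0 with a pseudocount of 1 and 0 with the larger array set alone. It was 4 (5.13%) after quantile normalization, 7 (8.97%) after median centring and 6 (7.69%) with a pseudocount of 64. With a filter on dim probe sets it was 9 of the 58 members left (15.5%). With a variance trend and robust variances it was 12 (15.4%). Leaving out 1 array at a time gave 0 to 1. Over all probe sets the count was 1017 (1.86%) in the reported fit, 1200 (2.2%) after quantile normalization and 1443 (2.64%) after centring. It was 6 without a block, 0 with a replicate block, and 2 and 2140 (3.92%) with pseudocounts of 1 and 64. With the filter 2642 of the 27306 probe sets left (9.68%) passed, and with the variance trend 2567 (4.7%). Leaving out 1 CTCF array gave 0 to 762. The members' median log2 change stayed above 0 in all of these fits, but they are not all separate checks. It was 0.378 and 0.189 with pseudocounts of 1 and 64, 0.356 with the filter, 0.215 without probe sets ending in _x_at and 0.249 to 0.292 leaving out 1 array. Dropping either member of the smaller set gave the same values as the larger set alone, a median of 0.27 each time. The variance trend kept every log2 change as reported, with a median of 0.299. The filter and the removal of _x_at probe sets changed only which members were counted in the median. With the replicate block the median was 0.306. Only replicate numbers 1 and 2 are shared between the groups, so CTCF arrays 3 and 4 do not enter that estimate. The labels do not say that shared numbers pair the arrays. Deviations of same-numbered arrays from their group mean correlated at -0.696 for number 1 and 0.761 for number 2. With 2 empty vector arrays their deviations are mirror images, so these correlations cannot decide on pairing. The cause of the changes between fits was not tested.

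Of 547 alternative values for the 35 probe sets named by the rule, 501 kept direction and side of the threshold, 19 lost the threshold, 14 gained it and 13 changed sign. Of the probe sets described outside that rule, H1-3 passed the threshold after quantile normalization, after centring and with the filter. The shared one targeted to H2BC4 passed after centring, with the filter and with the variance trend, and so did 1 shared by H2BC11 and H2BC8, which also passed with a pseudocount of 64. H2BC11 lost its call in 10 alternatives and H4C14 in 9. All these counts enter the larger set alone and the fits that drop either member of the smaller set separately, though their values are the same. The variance trend, the filter and the removal of _x_at probe sets repeat the reported log2 changes, so direction could not change there. The probe sets that changed sign had reported values near 0. The H1-6 probe set reported at -0.11 was 0.006 without a block and 0.208 with the replicate block. H2BC21 was 0.006 after quantile normalization, 0.029 after centring, and 0.197, 0.035 and 0.083 without empty vector array 2, CTCF array 2 and CTCF array 3, and leaving out 1 array gave -0.161 to 0.197. The H3C6 probe set reported at -0.11 was 0.104 without empty vector array 2 and 0.018 without CTCF array 2, with a range of -0.254 to 0.104 leaving out 1 array. The shared probe set targeted to H4C3 was -0.007 with the replicate block and -0.056 in the larger set, or when empty vector array 1 or CTCF array 4 was omitted, with a range of -0.056 to 0.315 leaving out 1 array.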
